A study of Mus musculus with 24 samples.

Results

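Muscle stem cells with a Pax7-driven inducible Cre aimed at Lamp2a (KO) were compared with Lamp2a wild-type cells (WT) 1 day after muscle injury, in 4 libraries of each genotype, or 8 of the 24 libraries of the series. Genes that reached a value of 1 in 4 or more of these 8 libraries were tested, 12397 of the 17111 listed, and the other 4714 were not. The genotype labels read L2A-Pax7CreER for KO and L2A-WT for WT. Every one of the 8 libraries came from muscle injected with cardiotoxin (50 µL at 10 µM), a venom component that destroys muscle fibres and leaves the stem cells to rebuild them. The remaining 16 libraries hold the same genotypes in uninjured muscle (day 0) and at day 4, with 4 libraries a group, and enter only where the genotype difference is compared between days.

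Cre is named for the KO group alone and no control group is labelled with Cre, so effects of the Cre allele and of Lamp2a loss cannot be told apart. The Pax7 promoter is meant to restrict the Cre to Pax7-expressing cells. How far Lamp2a was lost in them, or kept in other cells of a KO mouse, is not checked here. The age and sex of the mice, the agent that induced Cre and whether each library stands for a mouse of its own are not given in the sources used here. The p-values therefore measure only the spread between these libraries, which may be technical.

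In chaperone-mediated autophagy the chaperone Hsc70, encoded by Hspa8, binds cytosolic proteins that carry a targeting motif and takes them to LAMP2A, a splice product of Lamp2 in the lysosomal membrane, where the receptor forms a complex and the protein is drawn inside and degraded. Other lysosomal routes, in particular macroautophagy, enclose cargo in a membrane first. Muscle stem cells rest beneath the basal lamina of the fibre, marked by Pax7, and after injury they leave quiescence, induce Myod1, divide and later differentiate or return to rest.

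Lamp2 itself did not pass the test. Its value, in reads per M (1000000) after the authors' scaling, was 371, 457, 417 and 415 in the 4 WT libraries and 457, 393, 421 and 290 in the 4 KO libraries, and the groups overlapped. The log2 difference, KO minus WT on log2(value + 1), was -0.1 with a standard error (SE) of 0.13 (limma adjusted p = 0.571). Every amount by which a gene is said below to rise or fall is such a log2 difference. With quantile normalization or with values scaled by total reads only, Lamp2 passed as lower in KO. Its lowest log2 difference over all settings was -0.42. A gene-level count sums the splice forms that encode LAMP2A, LAMP2B and LAMP2C, so it cannot check the loss of one of them.

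The 8 libraries held 17.79 to 22.08 M reads in WT and 20.23 to 22.48 M in KO, and correlations on the log2 scale were 0.963 to 0.981 within WT, 0.954 to 0.962 within KO and 0.897 to 0.932 between them. The scaling factors that the authors applied did not overlap, at 1.09 to 1.15 in WT and 0.89 to 0.938 in KO. Fewer genes had a read in KO (14881 to 15063) than in WT (15745 to 15899), while mitochondrial transcripts took 3.77 to 6.13% of KO reads and 2.2 to 3.68% of WT reads. The part of these differences in the results was not tested. Markers of muscle stem cells were present in both groups, all 12 of the 12 listed, and those of blood cells were low. Of 20 macrophage and monocyte markers 17 missed the filter. Of these, 11, Adgre1, Itgam and C1qa included, were below 1 in all 8 libraries. The list's summed value was 9.4 to 33.7 in WT and 18.2 to 29.6 in KO. Of the 3 tested markers, Cd14 passed as higher in KO (log2 difference 1.79) and 2 did not pass, and the median was 1.19.

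Of the 12397 genes, 4400 differed between KO and WT (limma, adjusted p under 0.05), or 35.5%: 2371 were higher in KO (19.1%) and 2029 lower (16.4%). A total of 896 were higher and 924 lower by more than 1 on the log2 scale, and 95 and 75 by more than 2. The groups did not overlap in 4099 genes, or 33.1% of those tested. The split of calls depended on the scale and on the model. With values scaled by total reads only, which shifts the median of all genes from -0.03 to -0.3, 1334 genes were higher and 3861 lower. A model over all 24 libraries kept the scale and the log2 differences and took the spread from all groups. In it 1263 were higher and 387 lower. Direction also followed abundance: among the 1240 genes with the highest mean, 569 were higher and 83 lower in KO, with a median log2 difference of 0.26, and among the 1240 with the lowest mean 62 were higher and 128 lower, with a median of -0.18. Each list's counts below are to be read beside the shares of all genes tested, 19.1% higher and 16.4% lower, and several lists lie near these shares. Lists of abundant genes are also to be read beside the 569 higher and 83 lower of the 1240 genes with the highest mean. The part of abundance in a list's counts was not tested. The counts of a list below are followed in square brackets by the numbers higher and lower with quantile normalization (quantile) or with values scaled by total reads only (total reads). This is done wherever that setting moved the share of higher among the called members by more than 10 percentage points or turned the sign of the median, which is then given. In the model over all 24 libraries, 34 of 166 called genes that were followed through every setting did not pass. Nfe2l2, Bag3, Psmb6, Des and Stip1 did not pass with quantile normalization or with values scaled by total reads only (adjusted p up to 0.77), and Hspa5 and Hsp90aa1 did not with quantile normalization (adjusted p = 0.381 and 0.132). In bulk RNA, fewer cells of a type and less RNA per cell cannot be told apart.

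**Figure D1:**
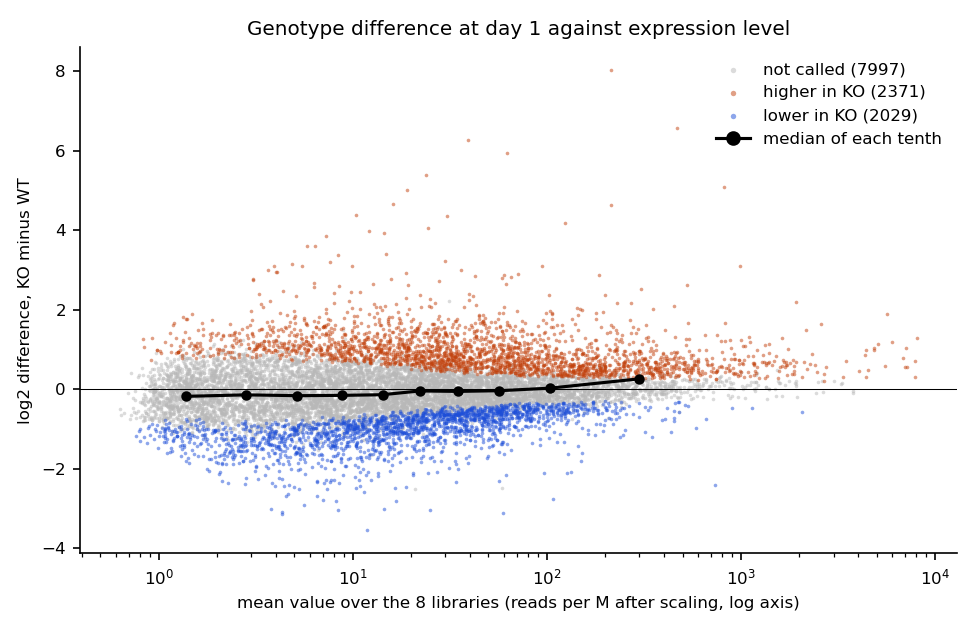
Log2 difference (KO minus WT) of each of the 12397 genes tested at day 1 against its mean value over the 8 libraries (log axis). Orange (higher) and blue (lower) points passed the limma test, grey points did not, and the black line joins the medians of 10 groups of equal size by mean value, which run from -0.18 in the lowest to 0.26 in the highest.

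The largest rise was that of Pthlh, the gene of parathyroid hormone-related protein, a secreted peptide that signals through the receptor Pth1r. Pthlh stood at 0.27, 0.344, 0.258 and 2.29 in WT and at 370, 463, 427 and 448 in KO. It differed by 8.03 on the log2 scale (SE 0.28, limma adjusted p = 6.26e-10), with no KO library below 370 and WT replicate 4 above the other WT libraries. Pth1r rose too, from 0.81, 1.08, 1.34 and 0.714 in WT to 7.53, 9.48, 13.3 and 6.66 in KO (log2 difference 2.34, SE 0.29, limma adjusted p = 8.29e-05), a low but separate level. Gnas, the G protein subunit that links this receptor to adenylate cyclase, rose by 0.98 (SE 0.15, limma adjusted p = 0.000276). Of 8 tested genes of this pathway 4 were higher and 1 was lower, with a median of 0.62.

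Haem breakdown and iron storage made the next group. Hmox1, haem oxygenase 1, which opens the haem ring and frees its iron, had 43.3, 47.8, 50.6 and 39.9 in WT and 1676, 1333, 1733 and 1600 in KO, a 34.9-fold ratio of means (log2 difference 5.09, SE 0.11, limma adjusted p = 9.37e-12). Blvrb, which reduces biliverdin, the product of haem oxygenase, rose by 1.48 (SE 0.19, limma adjusted p = 0.000107). Both chains of ferritin, the protein shell that stores iron, were higher: the light chain Ftl1 moved from 2387 ± 279 to 8920 ± 516 (SD, n = 4 each) and the heavy chain Fth1 from 3189 ± 456 to 6497 ± 657. A pair of enzymes of haem synthesis were lower. Uros was 14, 18.8, 16.8 and 22.9 in WT and 6.75, 11.6, 8.63 and 5.43 in KO, and Fech, ferrochelatase, which inserts the iron, was 81.7, 110, 83.6 and 79.3 in WT and 49.9, 50.3, 55 and 32.5 in KO. Neither gene's groups overlapped (log2 differences -1.1 and -0.92, limma adjusted p = 0.00623 and 0.00165). Across the whole list of 25 tested haem and iron genes 8 were higher and 6 lower [total reads 6 and 10], and the median was -0.06.

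**Figure D2:**
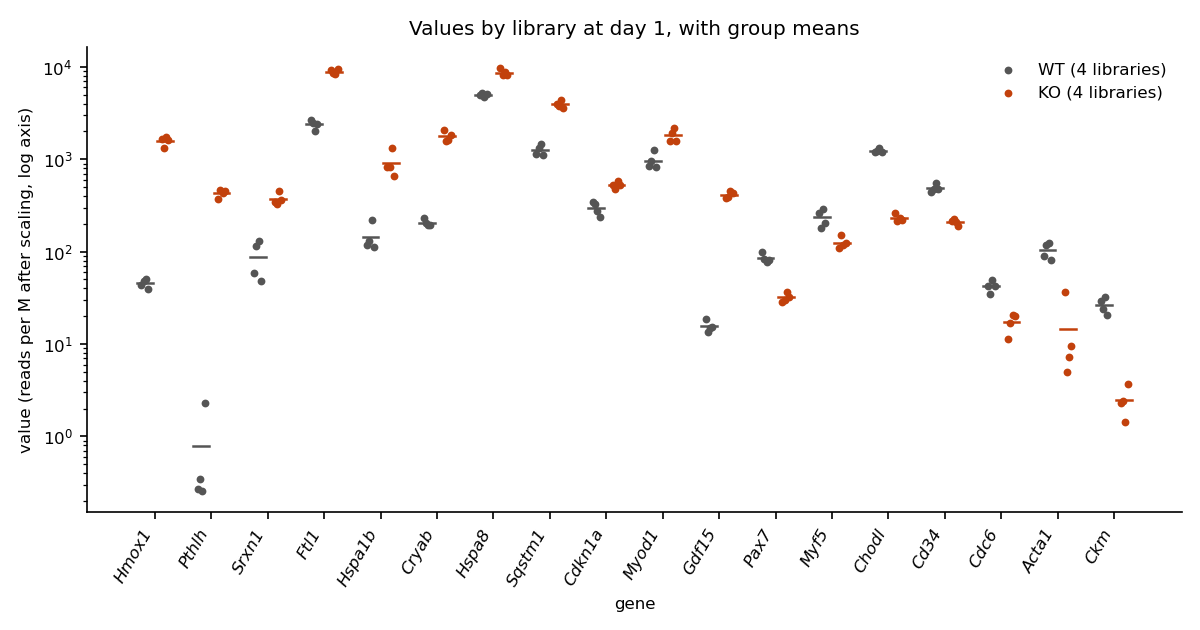
Value (reads per M after the authors' scaling, log axis) in each of the 4 WT and 4 KO libraries at day 1 for 18 genes named in the text, with a bar at each group's mean. The genes from Hmox1 to Gdf15 are higher in all KO libraries, and those from Pax7 to Ckm are lower in all KO libraries.

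Genes of the antioxidant response controlled by NRF2, a transcription factor encoded by Nfe2l2 that is held in the cytosol by KEAP1, were higher in 20 of 35 and lower in 1 [quantile 15 and 4], with a median of 0.53. Srxn1, sulfiredoxin, which repairs over-oxidised peroxiredoxins, had 58.3, 114, 129 and 48.2 in WT and 346, 328, 450 and 359 in KO. The subunits of the enzyme that starts glutathione synthesis followed: Gclc, the catalytic subunit, rose by 1.67 (SE 0.23, limma adjusted p = 0.000167) and Gclm, the modifier subunit, by 1.53 (SE 0.23, limma adjusted p = 0.000294). Slc7a11, which imports cystine, rose from a WT mean of 1.8 to 6.39, Esd from 496 to 1153 and the glutathione transferase Gsta4 from 7.36 to 18.3. Nfe2l2 itself was higher by 0.53 (SE 0.1, limma adjusted p = 0.00108), and the log2 difference of Keap1 was -0.72. The thioredoxin inhibitor Txnip was not on the list and was picked after its values were seen. It had 38.3, 40, 41 and 55.5 in WT and 387, 286, 308 and 333 in KO (log2 difference 2.89).

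Heat shock proteins formed a broad block. These chaperones bind unfolded proteins and are induced by heat shock factor 1 when such proteins build up. The RNA of Hsf1, the gene of that factor, had a log2 difference of 0.06. Of 16 tested members of the HSP70 and HSP110 group, nucleotide exchange factors included, 10 were higher and 0 lower [quantile 7 and 1, total reads 7 and 1] (limma, adjusted p; the median was 0.68), and of 27 HSP90, HSP40 and small heat shock protein genes 17 were higher and 2 lower [quantile 12 and 4, total reads 13 and 4] (median 0.5). Hspa1b had 119, 129, 221 and 113 in WT and 830, 817, 1312 and 659 in KO, and its near-identical neighbour Hspa1a had 74.4, 72.1, 144 and 63.3 in WT and 433, 446, 888 and 317 in KO, so reads may be divided between them. Hsph1, an HSP110 exchange factor, stood at 213, 252, 329 and 240 in WT against 845, 712, 840 and 843 in KO. Small heat shock proteins changed in both directions. Cryab, alpha B-crystallin, had 229, 205, 192 and 193 in WT and 2067, 1560, 1621 and 1827 in KO, and its partner Hspb8, which works with Bag3 in the removal of damaged muscle proteins, had 5.05, 7.59, 9.82 and 7.21 in WT and 57.3, 69.5, 69 and 63.2 in KO. Hspb1 rose by 1.63 (SE 0.15, limma adjusted p = 8.11e-06), Bag3 by 0.7 (SE 0.17, limma adjusted p = 0.00573) and Hspa4l by 1.77 (SE 0.13, limma adjusted p = 1.32e-06). Hspb6 and Hspb7, small heat shock proteins of mature muscle, were the lower pair, at means of 14.6 against 5.38 and 2.42 against 0.205.

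Letters read as a heat shock element (GAANNTTC or TTCNNGAA, which are each their own reverse complement, so both strands were read) are shown in capitals in the RefSeq promoter windows of Pthlh and of 3 heat shock genes, from 250 bases before to 50 after the gene start, on build GRCm38.p6 and 5′ to 3′ on the gene's strand. The fifth window, of Slc7a11, shows the CARE letters (TGATGNAA, both strands) known from ATF4 target genes. These windows are shown because the genes are among the more changed of their groups and hold such letters, and they were picked after the matches were seen.
Pthlh, chr6:147263964-147264263 (minus strand): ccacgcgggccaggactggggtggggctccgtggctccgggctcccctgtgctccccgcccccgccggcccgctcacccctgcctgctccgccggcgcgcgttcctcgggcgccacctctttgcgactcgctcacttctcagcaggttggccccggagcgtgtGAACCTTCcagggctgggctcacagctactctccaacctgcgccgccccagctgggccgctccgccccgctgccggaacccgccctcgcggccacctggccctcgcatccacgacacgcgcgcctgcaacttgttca
Hspb8, chr5:116422815-116423114 (minus strand): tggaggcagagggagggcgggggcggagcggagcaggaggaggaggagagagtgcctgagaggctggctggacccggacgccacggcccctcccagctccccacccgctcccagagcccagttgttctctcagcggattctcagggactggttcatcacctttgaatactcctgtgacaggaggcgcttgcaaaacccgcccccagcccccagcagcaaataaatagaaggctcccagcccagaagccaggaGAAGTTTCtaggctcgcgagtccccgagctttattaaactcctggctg
Hspa1b, chr17:34959189-34959488 (minus strand): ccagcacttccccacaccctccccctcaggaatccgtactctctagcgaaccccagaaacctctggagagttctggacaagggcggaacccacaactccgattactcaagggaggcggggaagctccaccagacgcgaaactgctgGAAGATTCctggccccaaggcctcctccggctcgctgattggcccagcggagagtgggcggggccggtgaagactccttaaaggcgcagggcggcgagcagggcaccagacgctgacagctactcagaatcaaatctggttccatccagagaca
Hsph1, chr5:149636287-149636586 (minus strand): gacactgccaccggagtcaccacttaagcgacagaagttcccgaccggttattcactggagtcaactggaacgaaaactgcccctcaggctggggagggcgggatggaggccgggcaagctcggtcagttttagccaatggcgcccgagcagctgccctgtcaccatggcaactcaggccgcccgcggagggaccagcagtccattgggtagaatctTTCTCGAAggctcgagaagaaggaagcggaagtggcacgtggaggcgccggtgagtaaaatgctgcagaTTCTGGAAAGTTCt
Slc7a11, chr3:50443564-50443863 (minus strand): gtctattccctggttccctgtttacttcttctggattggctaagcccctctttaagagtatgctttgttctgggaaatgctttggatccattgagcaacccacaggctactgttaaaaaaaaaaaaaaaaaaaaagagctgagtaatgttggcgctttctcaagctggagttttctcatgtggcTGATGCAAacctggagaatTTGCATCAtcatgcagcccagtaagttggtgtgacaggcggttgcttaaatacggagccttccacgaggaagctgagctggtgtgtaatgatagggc
The same letters were also looked for in the windows of all genes. RefSeq windows were matched for 9233 of the 12397 genes (11856 windows). The heat shock letters were in 11.67% of all windows, in 11% of those of genes higher in KO and in 12.7% of those of genes lower. The CARE letters were in 2.19% of all windows, 1.82% of those of higher genes and 2.69% of those of lower genes. Letters of an antioxidant response element (TGACNNNGC) were in 14.3% of all, 14.37% of higher and 12.65% of lower genes' windows. The last pair of heat shock matches in Hsph1 overlap. The shares are a description with no test, and a match is not shown to be a bound site.

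The list of chaperone-mediated autophagy shares several chaperones with the heat shock lists. Of 22 tested genes of its machinery and regulators 14 were higher and 0 lower [quantile 6 and 2, total reads 8 and 2], with a median of 0.53. Hspa8 had 4993, 5160, 4781 and 5034 in WT and 9702, 8168, 8757 and 8152 in KO. Hsp90aa1 rose by 0.61, Hsp90ab1 by 0.5 and the organiser Stip1 by 0.46, all with groups that did not overlap (limma adjusted p = 0.00128, 0.000475 and 0.00591). Bag1, a nucleotide exchange factor of Hspa8, rose by 1.24 (SE 0.33, limma adjusted p = 0.0113), with overlapping groups. Rac1, named as a regulator of this pathway, rose by 0.97 and Nfatc1, a transcription factor of Lamp2 in T cells, by 0.85 (limma adjusted p = 0.0013 and 0.00533). Eef1a1, the translation factor reported at the receptor complex, rose by 0.59 (limma adjusted p = 0.000181). Gfap, its partner there, is not among the genes analysed here. With quantile normalization Hspa8 (-0.05), Hsp90ab1 (-0.2) and Eef1a1 (-0.27) changed sign.

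Macroautophagy genes changed in both directions. Among 33 tested, 12 were higher and 6 lower [total reads 11 and 7 with median -0.08] (median 0.21). Genes of 3 ubiquitin-like proteins that coat the autophagosome were higher: Gabarapl1 had 59.3, 63.8, 66.5 and 57 in WT and 228, 201, 267 and 214 in KO, Map1lc3a had 24.6, 13.9, 11.2 and 10.7 in WT and 35.8, 48, 42.6 and 82.8 in KO, and Map1lc3b had 389, 377, 315 and 390 in WT and 781, 688, 708 and 691 in KO. Wipi2, which recruits the conjugation enzymes, rose by 1.48, Atg2a, a lipid transfer protein, by 1.58, the conjugated protein Atg12 by 1.24 and Ulk1, the initiating kinase, by 1.09 (limma adjusted p = 9.77e-05, 0.00102, 0.000195 and 0.00105). Stx17, the SNARE that fuses autophagosomes with lysosomes, fell by 1.1, Atg10, the enzyme that attaches Atg12, by 1.08, and Atg5, which receives it, by 0.58 (limma adjusted p = 0.00654, 0.00944 and 0.00893). In the model over all 24 libraries these 3 lower genes did not pass (adjusted p up to 0.492). Of 12 cargo receptors 4 were higher and 4 lower [quantile 3 and 5, total reads 2 and 5 with median -0.26], with a median of 0.01. Sqstm1, p62, which links ubiquitinated cargo to the autophagosome and is itself degraded there, had 1147, 1311, 1449 and 1126 in WT and 3950, 3749, 4409 and 3606 in KO (log2 difference 1.65, SE 0.1, limma adjusted p = 2.66e-07). Tax1bp1, a second ubiquitin receptor, rose by 0.69, while Fundc1, a mitochondrial receptor, fell by 0.68 (limma adjusted p = 0.000175 and 0.00492).

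Among lysosomal genes, of 30 membrane proteins, pump subunits and regulators 13 were higher and 1 lower [quantile 12 and 3, total reads 10 and 4 with median -0.05] (median 0.25), and of 35 hydrolases 6 were higher and 3 lower [quantile 3 and 4, total reads 1 and 10] (median -0.08). The hydrolases were not higher more often than all genes tested, of which 19.1% were higher and 16.4% lower. Npc1, which exports cholesterol from the lysosome, had 19.6, 18.8, 21.6 and 20.9 in WT and 70.5, 59, 53.8 and 63.5 in KO. Lamp1, the companion membrane protein of LAMP2, had 46.5, 48.7, 35.3 and 45.3 in WT and 80.2, 72.8, 59.3 and 118 in KO. Laptm4b rose by 1.07, Gpnmb by 1.44 and the proton pump subunit Atp6v1f by 0.92, and the subunit Atp6v1c1 fell by 0.79 (limma adjusted p = 3.69e-05, 0.00114, 0.000247 and 0.00324). Tfeb, the transcription factor of lysosomal genes, was low and higher in KO, at 1.23, 1.72, 3.12 and 1.55 in WT and 2.64, 4.87, 8.94 and 8.05 in KO (log2 difference 1.23, SE 0.36, limma adjusted p = 0.0179), with overlapping groups. The protease Ctsb rose by 0.77 and the ceramidase Asah1 fell by 0.47 (limma adjusted p = 7.19e-05 and 0.00393).

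Ubiquitin genes were higher in 7 of 13 and lower in 0 [quantile 6 and 4, total reads 5 and 3] (median 0.58), led by the stress protein Zfand5 (1.47) and the shuttle factors Ubqln1 (1.4) and Ubqln2 (1.31; limma adjusted p = 3.26e-05, 4.63e-05 and 0.00123). Of 14 core proteasome subunits 6 were higher and 0 lower [quantile 0 and 3 with median -0.11, total reads 0 and 1 with median -0.04], with a median of 0.26. Psmb6 rose by 0.55. Among regulatory subunits and activators 6 of 28 were higher and 4 lower [quantile 3 and 8 with median -0.17, total reads 3 and 10 with median -0.21], with a median of 0.09. Both counts were near the shares of all genes tested, 19.1% higher and 16.4% lower. Psme4, an activator cap, rose by 0.94 and the lid subunit Psmd11 by 0.65 (limma adjusted p = 0.000152 and 0.000349).

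Of 29 tested targets of ATF4, the transcription factor of the integrated stress response, 14 were higher and 1 was lower [quantile 13 and 3, total reads 10 and 8], with a median of 0.37. Gdf15, a secreted stress hormone, had 18.6, 13.5, 15 and 15.1 in WT and 379, 390, 454 and 427 in KO, a 26.5-fold ratio of means. Cebpb, a partner transcription factor, rose by 2.02, Slc7a5, a transporter of large amino acids, by 1.57, and Chac1, which breaks down glutathione, by 1.42 (limma adjusted p = 0.000292, 4.28e-05 and 0.00691). The RNA of Atf4 did not pass the test, at 622, 582, 621 and 579 in WT and 626, 614, 611 and 627 in KO. ER stress genes were higher in 9 of 24 and lower in 1 [quantile 6 and 8, total reads 6 and 8 with median -0.11] (median 0.19). Hspa5, the chief ER chaperone, rose by 0.63, the sensor Atf6 by 1.18 and Edem1, which sends misfolded proteins to degradation, by 1.42, while the ER oxidoreductase Pdia4 fell by 0.69 (limma adjusted p = 0.000661, 0.00012, 0.000152 and 0.00286).

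**Figure D3:**
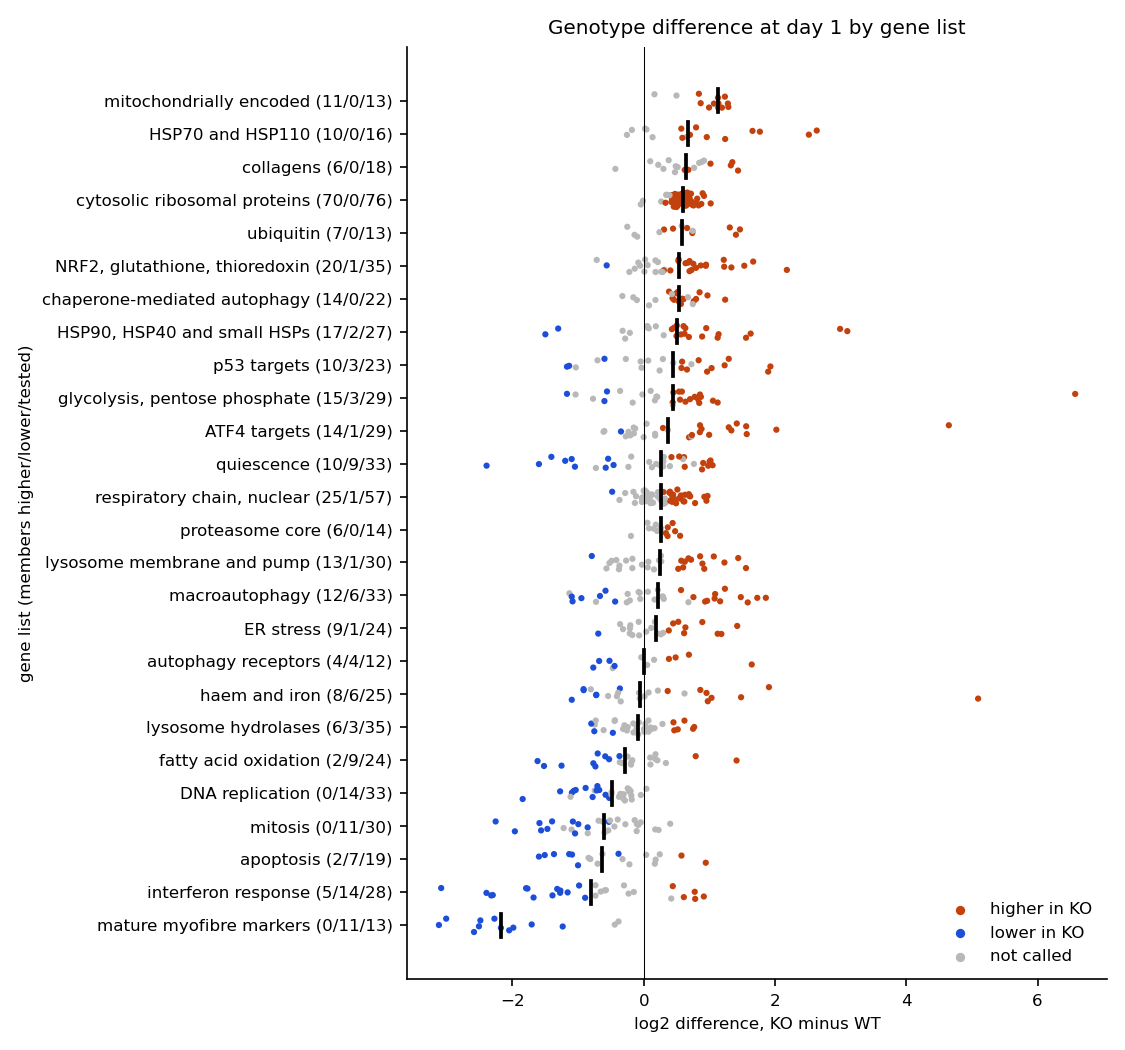
Log2 difference (KO minus WT) of each tested member of 26 gene lists at day 1 (points), with a black bar at the list's median. Coloured points passed the limma test and grey points did not. Counts beside each name are members higher, members lower and members tested. Mitochondrially encoded, ribosomal protein and heat shock lists lie to the right of 0, and myofibre, interferon, mitosis and replication lists lie to the left.

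Targets of p53 were higher in 10 of 23 and lower in 3 [total reads 8 and 6] (median 0.45). Phlda3, an inhibitor of AKT, had 26.5, 24.7, 19.1 and 24.2 in WT and 70.9, 102, 131 and 76.4 in KO, and the death receptor Fas had 56, 47.1, 33.8 and 40.7 in WT and 211, 135, 152 and 172 in KO. Cdkn1a, the inhibitor p21 that stops the cell cycle in G1, had 349, 326, 273 and 239 in WT and 528, 477, 580 and 522 in KO (log2 difference 0.84, SE 0.12, limma adjusted p = 0.000272). Trp53 itself rose by 0.58, and Btg2 fell by 1.14 (limma adjusted p = 0.000325 and 6.68e-05). Of 19 apoptosis genes 2 were higher and 7 lower [total reads 1 and 12] (median -0.63). Casp8, the caspase that acts below Fas, had 30.5, 35.2, 29.4 and 29.2 in WT and 6.64, 12.2, 11.7 and 11.5 in KO. The survival gene Bcl2 fell by 1.37, while Mcl1, of the same family, rose by 0.94 (limma adjusted p = 0.000379 and 0.00016).

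Transcripts of the mitochondrial genome were higher in 11 of 13 and lower in 0, with a median of 1.13, and the summed value did not overlap between groups (16574 to 27997 in WT, 34877 to 57551 in KO). mt-Nd4, a subunit of complex I, had 1221, 985, 704 and 894 in WT and 2678, 2066, 1768 and 2769 in KO. The mitochondrial share was highest in replicates 4 and 1 of KO, at 6.13 and 5.86% of reads, and in replicate 1 of WT, at 3.68%. Of 57 nuclear genes of the respiratory chain 25 were higher and 1 lower [quantile 9 and 10, total reads 7 and 13 with median -0.04], with a median of 0.26. Of 30 mitochondrial ribosomal proteins 2 were higher and 9 lower [total reads 0 and 21] (median -0.21). No gene of the TCA cycle passed among 24 tested by limma; 4 had an unadjusted p under 0.05, and the median was 0.01. By edgeR 0 were higher and 1 lower, and by DESeq2 0 and 3. With quantile normalization limma called 0 higher and 10 lower (median -0.20), and with values scaled by total reads only also 0 and 10 (median -0.29). Fatty acid oxidation genes were lower in 9 of 24 and higher in 2. Acadm, the medium-chain acyl-CoA dehydrogenase, had 106, 100, 90.5 and 89.5 in WT and 44.1, 30.5, 32.3 and 27.1 in KO, and Cpt2, which passes long chains into the matrix, had 17.5, 23.1, 24.6 and 11.1 in WT and 6.58, 6.65, 4.93 and 3.56 in KO.

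Of 76 cytosolic ribosomal protein genes 70 were higher and 0 lower, with a median of 0.6, which was 0.25 with quantile normalization (25 higher). Rps19 rose by 1.02 and Rpl13 by 0.9 (limma adjusted p = 9.23e-05 and 3.61e-05). Ribosomal protein mRNAs took 5.12 to 6.65% of WT and 6.51 to 8.4% of KO reads. Eef2, the elongation factor that moves the ribosome, rose by 1 and Pabpc1, the poly(A)-binding protein, by 1.26 (limma adjusted p = 6.38e-05 and 4.02e-06). Of 34 genes that build ribosomes 7 were higher and 1 lower [quantile 2 and 6 with median -0.19, total reads 1 and 10 with median -0.25], with a median of 0.04. Their share higher was near the 19.1% of all genes tested. Among 22 tRNA synthetases 1 was higher and 3 were lower [quantile 1 and 9, total reads 0 and 12]. Of 29 glycolysis and pentose phosphate genes 15 were higher and 3 lower [quantile 9 and 4, total reads 7 and 6] (median 0.44). Hk2, hexokinase 2, rose by 0.87 and Pgd, of the oxidative pentose phosphate branch, by 1.05 (limma adjusted p = 0.00374 and 0.00301). Of 27 sterol genes 5 were higher and 7 lower [total reads 2 and 10]. Hmgcs1 and Idi1, of the cholesterol synthesis path, fell by 1.4 and 1.01, while Insig2, which holds back that path, rose from 172, 181, 156 and 164 in WT to 418, 337, 401 and 380 in KO.

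Cell cycle genes that passed were mostly lower. Of 33 DNA replication genes 14 were lower and 0 higher (median -0.49), and of 30 mitosis genes 11 were lower and 0 higher (median -0.61). Cdc6, which loads the replicative helicase, had 42.5, 34.9, 49.5 and 42.4 in WT and 11.4, 16.8, 20.7 and 19.9 in KO, and the ribonucleotide reductase subunit Rrm2 had 143, 194, 128 and 123 in WT and 49.2, 74.3, 69.2 and 86.8 in KO. Ccna2, cyclin A2, fell by 1.59, Ccnb1, cyclin B1, by 1.4, the spindle kinase Aurkb by 1.96 and Top2a, the replication-linked topoisomerase, by 1.05 (limma adjusted p = 0.00266, 0.00159, 0.00114 and 0.00699). The proliferation marker Mki67 had 8.53, 18.6, 7.9 and 5.44 in WT and 4.25, 10.2, 2.48 and 1.47 in KO and missed the threshold (limma adjusted p = 0.0767); without KO replicate 2 it passed (adjusted p = 0.0149). Values of mitosis genes were low at this time, with a summed value for the list of 239 to 323 in WT and 123 to 180 in KO. Of the cyclins of G1, Ccnd1 fell by 0.59 and Ccne2 by 1.12, and Ccnd2 rose by 1.21 (limma adjusted p = 0.00134, 0.00614 and 0.011). In the model over all 24 libraries 1 replication gene and 2 mitosis genes passed the test.

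The regulators of the myogenic lineage moved apart. Pax7, the transcription factor that marks muscle stem cells, had 100, 82.7, 77.2 and 81 in WT and 28.5, 30.2, 37 and 32.4 in KO (log2 difference -1.38, SE 0.14, limma adjusted p = 1.88e-05). Myf5, which primes the cells for activation, had 262, 180, 292 and 204 in WT and 109, 150, 118 and 124 in KO, and Myod1, the determination factor of activated cells, had 840, 954, 1266 and 815 in WT and 1591, 1907, 2191 and 1583 in KO. So Pax7 and Myf5 were lower, and Myod1 was higher, in every KO library than in every WT library. Myog, which starts differentiation, was uneven in both groups, at 54.9, 3.19, 3.31 and 20.3 in WT and 11, 5.16, 0.0261 and 2.01 in KO, and did not pass the test (log2 difference -1.64, limma adjusted p = 0.144). The Myog difference was -1 without KO replicate 3 and -0.9 without WT replicate 1. Msc, musculin, a repressor of MYOD1, rose by 0.98 and the MYOD1 cofactor Mef2d by 1.13, and Id3, another repressor, fell by 0.73 (limma adjusted p = 0.00278, 0.000253 and 0.000511). Of 17 tested myogenic transcription factors 4 were higher and 6 lower [total reads 3 and 8].

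Genes linked to quiescence were also divided, with 10 of 33 higher and 9 lower [total reads 7 and 12 with median -0.01] (median 0.27). Chodl, chondrolectin, a surface protein, had 1190, 1227, 1320 and 1186 in WT and 265, 215, 234 and 222 in KO. Calcr, the calcitonin receptor that keeps the cells quiescent, had 78.1, 58.3, 81.9 and 87.6 in WT and 38.9, 20.6, 27.9 and 27 in KO, the growth factor receptor Fgfr4 had 162, 228, 337 and 190 in WT and 53.6, 92.3, 97.2 and 56.5 in KO, and the surface marker Cd34 had 442, 475, 549 and 471 in WT and 217, 226, 209 and 190 in KO. Each of these 4 was lower in every KO library. Spry1, the inhibitor of FGF signalling needed for return to rest, fell by 0.54 (limma adjusted p = 0.0073). The syndecan Sdc4 and the Notch target Hey1 were higher, at 542, 528, 808 and 451 and 36.6, 39.8, 48 and 39.8 in WT against 1066, 1002, 1388 and 1298 and 72.7, 81.2, 91 and 88.1 in KO. Notch1 rose by 1.1 (limma adjusted p = 0.00257), and of 15 Notch genes 5 were higher and 2 lower [total reads 4 and 4 with median -0.11], with a median of 0.19. Of growth factor genes, the receptor Fgfr1 rose by 1.26, its ligand Fgf2 by 1.51, and Igf1 and Hbegf fell by 1.37 and 1.26 (limma adjusted p = 4.02e-06, 0.00218, 0.000654 and 0.000167).

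Transcripts of the mature fibre were mostly lower in KO. Of 25 sarcomere and excitation-contraction genes 15 were lower and 1 was higher (median -1.43), and of 13 markers of mature myofibres 11 were lower and 0 higher (median -2.18). Acta1, skeletal actin, had 89.5, 117, 125 and 82 in WT and 36.7, 4.97, 7.27 and 9.54 in KO. Ckm, muscle creatine kinase, had 29.3, 23.7, 32.2 and 20.7 in WT and 2.31, 2.42, 1.43 and 3.66 in KO, and the fast troponin C Tnnc2 had 17.6, 20.8, 18.6 and 15.3 in WT and 2.53, 2.04, 0.965 and 5.21 in KO. Myoglobin, Mb, had 6.13, 13.9, 17.1 and 13.8 in WT and 1.25, 1.13, 2.32 and 2.27 in KO. The summed value of the 14 listed myofibre markers in the table was 237 to 352 in WT and 29.1 to 78 in KO. The part of RNA from fibres in these values was not tested. Des, desmin, which stem cells also express, rose by 0.76 (limma adjusted p = 0.00548).

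**Figure D4:**
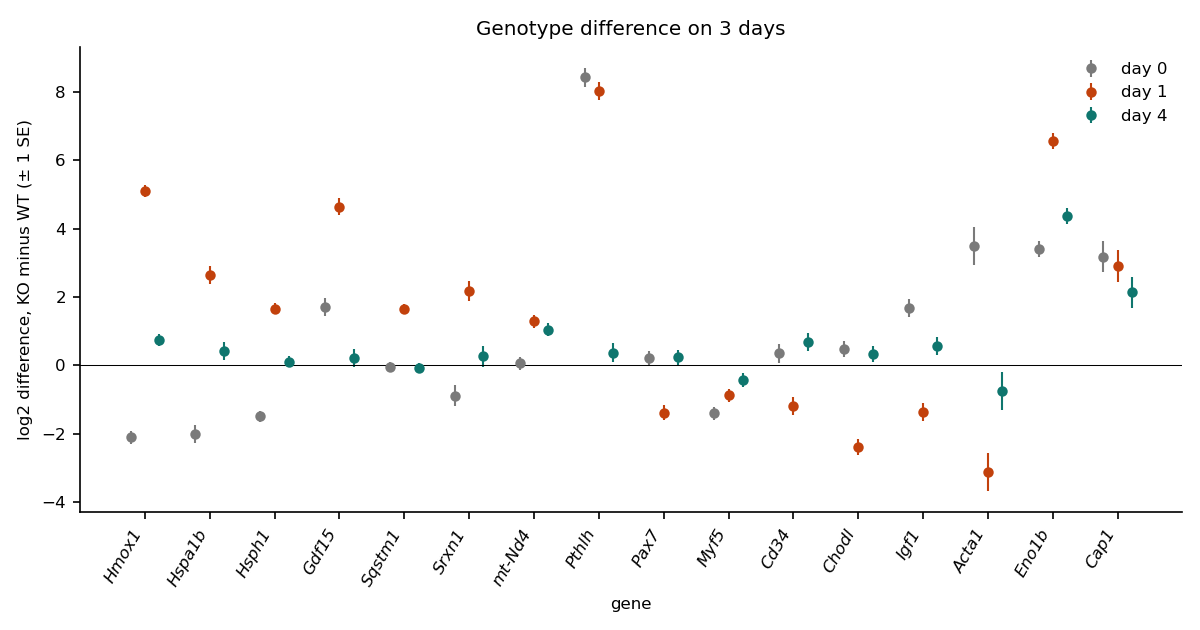
Genotype difference (KO minus WT, log2) at day 0, day 1 and day 4 for 16 genes, from a model over all 24 libraries, with bars of 1 SE (4 libraries a group). Hmox1, Hspa1b and Hsph1 lie below 0 at day 0 and above 0 at day 1, Acta1 and Igf1 lie above 0 at day 0 and below 0 at day 1, and Eno1b and Cap1 are above 0 on all 3 days.

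Immediate early genes, which respond within minutes to growth factors and to cell isolation, were lower in 11 of 28 and higher in 5. Fosb, an AP-1 subunit, had 274, 219, 163 and 205 in WT and 46.8, 48.9, 32.1 and 79.9 in KO, and Egr1, a zinc finger factor, had 302, 301, 457 and 282 in WT and 128, 127, 169 and 149 in KO. Egr2 fell by 1.81 (limma adjusted p = 0.000208). Btg1, an antiproliferative gene, rose from 231, 156, 141 and 161 in WT to 623, 733, 797 and 764 in KO, and the phosphatase Dusp1 rose by 1.19 (limma adjusted p = 0.00448), with overlapping groups.

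Interferon response genes were lower in 14 of 28 and higher in 5 (median -0.81). Ifit1, an antiviral RNA-binding protein, had 7.54, 11.1, 4.2 and 11.4 in WT and 0.0278, 0.072, 0.0261 and 0.134 in KO, where a value this low stands for 3 reads in all 4 libraries. Ifit3 had 5.05, 7.78, 5.37 and 16.3 in WT and 1.75, 1.18, 0.0261 and 0.241 in KO, and Usp18, which limits the response, had 11.9, 7.87, 8.65 and 16.7 in WT and 3.36, 2.86, 0.808 and 0.0267 in KO. The RNA sensor Ddx58 (RIG-I) fell by 1.79 (limma adjusted p = 0.000465). The histocompatibility gene H2-K1, on the same list, rose from 222, 234, 274 and 208 in WT to 397, 415, 417 and 382 in KO. Of the inflammatory genes, Nfkb1 rose by 1.5, and Tnfaip3, its negative regulator, and Csf1, the macrophage growth factor, fell by 1.28 and 1.01 (limma adjusted p = 8.75e-07, 0.00115 and 0.00155).

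Retinoic acid genes held one of the largest rises. Cyp26a1, which degrades retinoic acid, had 1.1, 0.436, 2.51 and 0.517 in WT and 148, 103, 113 and 128 in KO (log2 difference 5.94, SE 0.28, limma adjusted p = 2.15e-08). Aldh1a2, which makes retinoic acid, was near its floor in WT at 0.768, 0.0229, 0.211 and 0.0246 and uneven in KO at 8.69, 2.47, 36.9 and 11.8 (log2 difference 3.21, and 2.62 without KO replicate 3). It did not pass with limma-voom on recovered counts (adjusted p = 0.0627), and the difference ranged from 1.64 to 6.59 over the alternatives. The receptor Rarb fell by 1.71 and Rarg rose by 1.18 (limma adjusted p = 0.00177 and 0.00161). Of 13 tested members 6 were higher and 3 lower [quantile 7 and 2].

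More matrix genes were higher than lower. Of 18 collagens 6 were higher and 0 lower (median 0.65), and of 29 matricellular genes 13 were higher and 2 lower [quantile 13 and 4, total reads 9 and 5] (median 0.61). Col3a1 had 97.4, 121, 152 and 90.1 in WT and 267, 283, 379 and 310 in KO, and Thbs2, thrombospondin 2, had 30.3, 41.3, 67.8 and 42.1 in WT and 159, 99.1, 152 and 131 in KO. Tgfb2 and its signal transducer Smad3 rose by 1.61 and 1.78 (limma adjusted p = 6.07e-05 and 7.63e-05). Fibro-adipogenic progenitors, the other collagen-making cells of muscle, have markers of which 4 of 13 tested were higher and 0 lower [quantile 6 and 2, total reads 3 and 2], with a summed value of 1845 to 2196 in WT and 2573 to 3349 in KO. The 4 were Gsn, Col3a1, Col1a1 and Ly6a. Gsn, gelsolin, had 577, 636, 941 and 543 in WT and 1284, 1360, 1890 and 1182 in KO, with groups that did not overlap (limma adjusted p = 0.000467). The surface marker Ly6a had 4.09, 2.04, 0.539 and 3.13 in WT and 10.8, 2.9, 4.35 and 26 in KO (limma adjusted p = 0.0456). Its call was lost without KO replicate 1 (adjusted p = 0.101), KO replicate 4 (adjusted p = 0.126), WT replicate 2 (adjusted p = 0.0905), WT replicate 3 (adjusted p = 0.124) or WT replicate 4 (adjusted p = 0.0646). Serping1 and Dpt missed the threshold at means of 954 and 140 in WT and 848 and 114 in KO (limma adjusted p = 0.142 and 0.14). Both passed as lower in KO with quantile normalization and with values scaled by total reads only. Pdgfra missed the filter, and Pi16 and Cd248 were below 1 in all 8 libraries. The part of such cells in the matrix genes was not tested.

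Beyond the lists, the largest changes included further secreted and membrane proteins. Arg2, the mitochondrial arginase, had 0.768, 4.75, 1.38 and 1.85 in WT and 70.6, 43.1, 55.8 and 67.3 in KO. Neu2, the cytosolic sialidase, had 12.1, 7.87, 8.27 and 20.4 in WT and 370, 218, 126 and 234 in KO. Pgf, placental growth factor, had 3.76, 3.33, 4.24 and 9.57 in WT and 67.5, 42.5, 48.9 and 57.8 in KO, and the calcium-binding S100a4 had 26.9, 21.9, 10.9 and 17.9 in WT and 163, 143, 150 and 221 in KO. All 4 were higher in every KO library. Klk1, a kallikrein, and Oxtr, the oxytocin receptor, had 3 and 1 reads in all 4 WT libraries together and 2501 and 1589 in KO. On the lower side, Nppc, the precursor of C-type natriuretic peptide, had 247, 155, 152 and 187 in WT and 13.3, 39.6, 19.4 and 44.6 in KO, and Phldb2 had 37.7, 23.2, 27.8 and 29.8 in WT and 1.97, 6.84, 1.9 and 4.09 in KO. Vipr2, a receptor of vasoactive intestinal peptide, had 16.9, 27.3, 25.2 and 17.4 in WT and 0.0278, 0.504, 6.86 and 0.0802 in KO, and by DESeq2 it did not pass (adjusted p = 0.0533). Its log2 difference was -3.55, and -4.23 without KO replicate 3. Ndrg1, a gene induced by low oxygen, rose from 142, 136, 170 and 115 in WT to 586, 512, 608 and 557 in KO, and the imprinted growth factor Igf2 from 17.5, 17.7, 15.3 and 12 in WT to 74, 75.9, 73.1 and 60.1 in KO, while the imprinted gene Peg3 went from 336, 375, 314 and 330 in WT to 163, 156, 142 and 146 in KO. The nuclear RNA Neat1, which scaffolds paraspeckles, rose from 155, 209, 194 and 196 in WT to 439, 467, 489 and 456 in KO.

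Some copies of genes rose where the genes they copy did not. Eno1b, a copy of the glycolytic enzyme gene Eno1, had 12.3, 8.65, 7.9 and 6.97 in WT and 908, 948, 1033 and 837 in KO. Eno1 had 1610, 1793, 1855 and 1642 in WT and 1484, 1612, 1587 and 1450 in KO and missed the threshold (limma adjusted p = 0.144). Eno1 passed as lower in KO with quantile normalization, with values scaled by total reads only and with a replicate block. The copy held 0.42 to 0.76% of the pair's sum in WT and 36.6 to 39.4% in KO. The processed pseudogene Ndufs5-ps had 0.27, 0.298, 0.0234 and 0.0246 in WT and 53.4, 44.4, 40.8 and 51.1 in KO beside Ndufs5, a complex I subunit, at 166, 143, 108 and 143 in WT and 114, 90.9, 90.4 and 117 in KO. The sum of the Eno1 pair did not overlap between groups, at 1622 to 1863 in WT and 2286 to 2620 in KO, and that of the Ndufs5 pair did, at 108 to 166 in WT and 131 to 168 in KO. Without WT replicate 1, the call for Ndufs5 itself was lost (adjusted p = 0.1), as it was without WT replicate 2 (adjusted p = 0.0898), WT replicate 4 (adjusted p = 0.0867), KO replicate 2 (adjusted p = 0.095) and KO replicate 3 (adjusted p = 0.0808). Reads may be divided between such copies, so these values are uncertain. Of 298 tested genes of a pseudogene type in GENCODE M21, 74 were higher and 20 lower, or 24.8% and 6.7%, against 19.1% and 16.4% of all genes. Gm3375, a pseudogene entry named after its values were seen, had 0 reads in the 4 WT libraries and 6000 in the 4 KO libraries at day 1, against 22 and 3 in KO at day 0 and day 4.

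**Figure D5:**
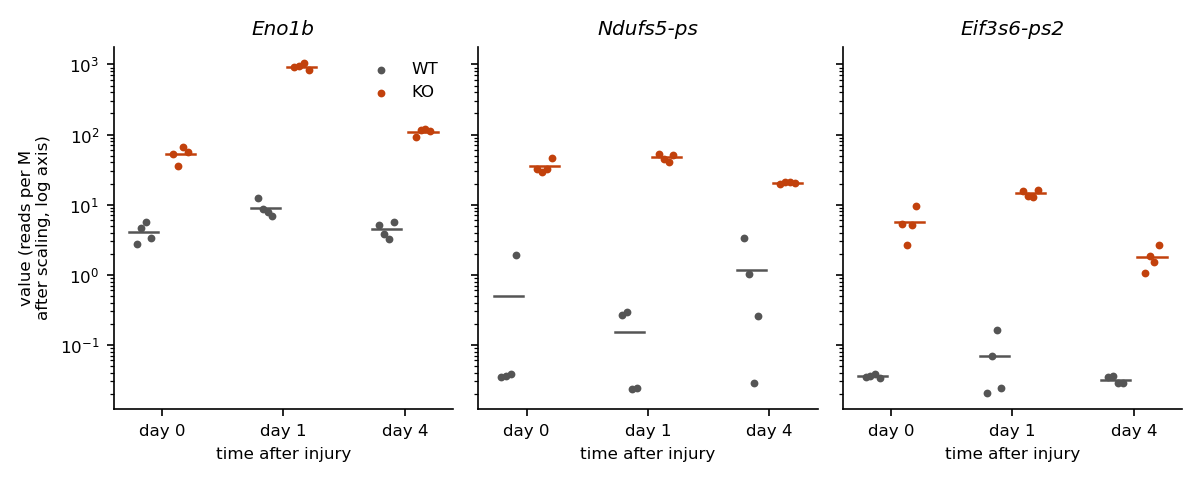
Value (reads per M after the authors' scaling, log axis) of 3 gene copies in each library of the 6 groups, with a bar at each group's mean. Every KO library exceeds every WT library on each of the 3 days for Eno1b, Ndufs5-ps and Eif3s6-ps2, and the lowest values stand for 0 reads, to which the authors added 0.5.

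The genotype difference at day 1 was then set against that at day 0 and at day 4, in one model over all 24 libraries. No library is shared between these differences. It differed from day 0 in 2111 genes (17%) and from day 4 in 731 (5.9%), and the genotypes themselves differed in 1587 genes at day 0 (12.8%) and in 106 at day 4 (0.855%). Of the 2371 genes higher in KO at day 1, 960 had a positive difference at day 0, or 40.5%, against 49.2% of all genes tested, and 1324 had one at day 4, or 55.8% against 46.1%. Across the 12397 genes the differences at day 1 and day 0 had a Pearson correlation of -0.083 and those at day 1 and day 4 of 0.168, given as descriptions since genes are not independent replicates.

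Several stress genes differed in sign between day 0 and day 1. Hmox1 was lower in KO at day 0, by 2.11 (adjusted p = 1.82e-08), and higher at day 1, a change of 7.21 (SE 0.25, limma adjusted p = 1.23e-16). The median of the HSP70 and HSP110 list was -0.49 at day 0, 0.68 at day 1 and 0.09 at day 4, and 8 of its 16 members had a higher difference at day 1 than at day 0, against 0 with a lower one. Hspa1b changed by 4.66 and Hsph1 by 3.16 (limma adjusted p = 3.37e-09 and 8.59e-10). Of the 29 ATF4 targets 13 had a higher difference at day 1 than at day 0, and of the 35 NRF2 genes 13, while 1359 of all 12397 genes did. Mitochondrially encoded genes had a median of 0 at day 0, 1.13 at day 1 and 1.08 at day 4, and 11 of 13 had a higher difference at day 1 than at day 0 and 0 of 13 than at day 4. At day 4 mitochondrial transcripts took 27.99 to 31.41% of WT and 43.17 to 47.89% of KO reads, and the part of that difference in the medians was not tested.

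Some cell cycle and fibre genes moved the other way. The mitosis list had a median of 1.37 at day 0, -0.61 at day 1 and -0.67 at day 4. The members named above were low and uneven at day 0. In KO libraries Ccna2 ran from 0.137 to 15.3 and Ccnb1 from 0.0358 to 10.8, and Aurkb had 0 reads in WT and 1 in KO. None of them passed at day 0 (limma adjusted p = 0.66, 0.17 and 0.989). Of the list's 30 members 7 had a lower difference at day 1 than at day 0. Of all 12397 genes 752 did. Of 25 sarcomere genes 12 did, Acta1 among them with a change of -6.62 (limma adjusted p = 1.76e-06). Igf1 was higher in KO at day 0 by 1.68 and changed by -3.05 (limma adjusted p = 3.46e-06). Pax7, Cd34 and Chodl did not pass at day 0 (adjusted p = 0.613, 0.437 and 0.2) or day 4, and their difference at day 1 was lower than at day 0 by 1.59, 1.54 and 2.86 (limma adjusted p = 0.00104, 0.00536 and 1.35e-06). Myf5 was lower at day 0 already, by 1.41 (adjusted p = 2.69e-05), and its change to day 1 did not pass (adjusted p = 0.195).

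Some genes already differed at day 0. Pthlh was higher in KO by 8.43 at day 0, the change to day 1 did not pass (limma adjusted p = 0.522), and at day 4 the difference was 0.37 and did not pass (adjusted p = 0.865). Arg2, Neu2 and Flrt1 were likewise higher at day 0, by 4.49, 3.89 and 4.68, and their day 4 differences of 0.63, -0.19 and 0.86 did not pass (adjusted p = 0.945, 0.99 and 0.618). Passing in the same direction on all 3 days were 9 genes, of which 8 were higher and 1, the prostaglandin synthase Ptgds, was lower. Among the 8 were Eno1b, Ndufs5-ps, Eif3s6-ps2, Gm12191, Gm10282, Gm10036 and Gm7125, entries for gene copies or predicted genes, and Cap1, an actin-binding protein with 11.1, 14.6, 20.9 and 17.6 in WT and 138, 128, 148 and 91.6 in KO at day 1.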

How the data were processed

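RNA of mouse muscle stem cells was sequenced as 24 libraries made with SMART-Seq v4. The submitters' processing notes name FastQC, STAR, RSEM, limma and build mm39, with no version, and strand handling is not given in the sources used here. The deposited values are a normalized signal per gene: the authors added 0.5 to a gene's whole count and divided the sum by the library's depth in M reads, depth being multiplied by a scaling factor. Whole reads came back for 100% of values within 0.02, and edgeR on those counts called 3825 genes. A value of 3 counts was 0.145 to 0.194 in the day 1 libraries, and this floor covers counting error only.

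The main test was limma 3.58.1 (R 4.3.3) with a mean-variance trend on log2(value + 1) of the 8 day 1 libraries, without a replicate block, on genes at 1 or more in at least 4 of the 8 libraries, with Benjamini-Hochberg adjustment over all 12397 genes and a threshold of 0.05. A fold on this scale understates the change of low genes. The day comparison used 1 model over 24 libraries with an interaction term. Alternatives used edgeR 4.0.16, DESeq2 1.42.0, limma-voom, other scalings, filters, pseudocounts and left-out libraries. Scaling by total reads was added after seeing the data. The test was tried on simulated data first. It found 0 of 67 genes changed 1.5-fold, 2 of 67 changed 2-fold and 43 of 66 changed 4-fold, and called 0 unchanged genes. The simulation changed few genes and gave all genes of a group the same dispersion, so its shares may differ from those in these data. A gene that was not called may still differ.

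Genes named are Lamp2, up to 20 of the largest changes in each direction with groups that do not overlap and a mean of at least 8 in the higher group, up to 6 called members of each list, and a fixed set of regulators. The members and lists were chosen with earlier results of these data known. Outside the rule, and chosen after their values were seen, are Asah1, Atg10, Atg5, Atp6v1c1, Bag3, Cap1, Dpt, Dusp1, Eif3s6-ps2, Eno1, Fech, Gm3375, H2-K1, Id3, Map1lc3b, Mcl1, Ndufs5, Ndufs5-ps, Serping1, Stip1, Stx17, Top2a, Txnip and Ulk1. No 2 libraries agreed within sampling noise. All libraries carry the same batch label.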

Additional observations from a re-analysis of the deposited data

Results flagged for a closer look

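Among 346 groups of 4 libraries, 21 held a library far from the other 3 by Dixon's criterion, and chance alone flags about 1 group in 20. In WT, replicate 4 was the high library for Pthlh (2.29), Pgf (9.57) and Txnip (55.5), replicate 3 for Hspa1a (144), Hspa1b (221) and Egr1 (457), and replicate 2 for Fech (110) and Hspb6 (19.9). Replicate 1 of WT was the low library for Klk1 (0.0208) and the high one for Oxtr (0.0623), at values of 0 or 1 read. In KO, replicate 1 was high for Acta1 (36.7) and Hspb7 (0.639) and low for Casp8 (6.64). Replicate 3 of KO was high for Bag3 (426), Des (1585), Notch1 (33) and Vipr2 (6.86), and replicate 2 was low for Hsph1 (712). Replicate 4 of KO was high for Slc7a11 (11.4) and low for Psmd11 (566) and Stip1 (724).

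The genotype difference itself differed between days, by the interaction term of limma, in 2111 genes for day 1 against day 0 and in 731 for day 1 against day 4. Against day 0 the difference at day 1 was higher by 7.21 on the log2 scale for Hmox1, by 4.66 for Hspa1b and by 3.16 for Hsph1. For 5 genes it moved down, by -6.62 for Acta1, -3.05 for Igf1, -2.86 for Chodl, -1.59 for Pax7 and -1.54 for Cd34.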

How the results depend on the processing

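The count of 4400 genes called at day 1 fell to 1650 in the model over all 24 libraries. That model has the same day 1 differences and takes the spread from all groups. Within-group correlations at day 0 were 0.841 to 0.869 in KO and 0.857 to 0.877 in WT. The part of each group in that spread was not tested. With 1 library left out it ranged from 3305 (without WT replicate 2) to 4388 (without KO replicate 3), and in the other alternatives from 3825 to 5195. With quantile normalization 2131 were higher and 2231 lower. The count of 2111 for day 1 against day 0 ranged from 1654 to 2262 with 1 library left out and from 1508 to 2198 otherwise, and values scaled by total reads only gave 655 higher and 1402 lower. The count of 731 for day 1 against day 4 ranged from 547 to 688 with 1 library left out. It rose to 1718 with library weights by group, 1639 with only the 16 libraries of both days and 1274 with values scaled by total reads only. Whether replicate numbers pair the libraries is not labelled. Deviations from the group means correlated between KO and WT libraries of the same number at 0.035, -0.013, 0.312 and 0.033. Between libraries of other numbers the correlations were -0.231 to 0.209. The value of 0.312, for replicate 3, was the largest, and whether an effect is shared by replicate number was not tested. A replicate block gave 4919, 2122 and 704 genes. Of the 166 called genes that were followed through every setting, 120 kept their call and direction in every alternative. Signs turned with quantile normalization for Atf4 (-0.32), Eef1a1 (-0.27), Hsp90ab1 (-0.2) and Hspa8 (-0.05), with values scaled by total reads only for Atf4 (-0.26), and without KO replicate 4 for Lamp2, which ranged from -0.19 to 0.03 with 1 library left out. Some named genes not called in the main test passed as lower in KO in other settings. With quantile normalization these were Lamp2, Eno1, Serping1 and Dpt. With values scaled by total reads only they were the same genes and Mki67. With a replicate block they were Eno1, Serping1, Mki67 and Myog. Depth limits genes near 3 counts, such as Ifit1 in KO and Klk1 and Oxtr in WT.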

Other observations

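The remaining lists are given by their counts, with square brackets as above, beside 19.1% higher and 16.4% lower among all genes tested. Lists of abundant genes are again also to be read beside the 569 higher and 83 lower of the 1240 genes with the highest mean. In KO at day 1, 5 of 18 chaperonin genes passed as higher and 0 as lower [quantile 2 and 6 with median -0.25, total reads 1 and 5 with median -0.17] (median 0.12). Hypoxia genes were higher in 7 of 17 and lower in 2 [total reads 3 and 4 with median -0.09], TGF-beta and BMP genes in 9 and 4 of 28 [total reads 8 and 6], growth factor and receptor genes in 6 and 5 of 19 [total reads 5 and 6 with median -0.10], IL-6 and JAK-STAT genes in 5 and 4 of 19 [total reads 2 and 5 with median -0.17], and chemokines and cytokines in 3 and 2 of 21 [quantile 3 and 4]. Imprinted genes were higher in 5 of 18 and lower in 4 [total reads 2 and 6 with median -0.004], prostaglandin genes in 2 and 3 of 9 (median 0.60), G1 cyclins and inhibitors in 2 and 4 of 22 [quantile 2 and 5 with median -0.10, total reads 2 and 7 with median -0.28], and mitochondrial biogenesis genes in 5 and 2 of 24 [quantile 4 and 6, total reads 2 and 11]. Nuclear long non-coding RNAs were higher in 5 of 8 and lower in 0 (median 0.58). Translation initiation genes were higher in 16 of 32 and lower in 2 [quantile 5 and 8 with median -0.09, total reads 6 and 5 with median -0.02], and a list of RNA-binding and splicing genes linked to cold and heat stress in 6 and 1 of 13 [quantile 2 and 6 with median -0.21, total reads 0 and 4 with median -0.08].

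Markers of other cells were mostly low. Of 9 tested pericyte and smooth muscle markers 6 were higher and 1 lower [quantile 4 and 0, total reads 4 and 2], with a summed value of 861 to 1231 in WT and 1450 to 1962 in KO. Most of that sum was Des, also a listed stem cell marker, at 553 to 961 in WT and 975 to 1585 in KO. Besides Des, the higher ones included Pdgfrb, Mcam, Notch3 and Tagln (log2 differences 1.36, 1.01, 0.83 and 0.75). The pericyte marker Rgs5 was the lower one (log2 difference -1.05), and Cspg4 and Myh11 missed the filter. Endothelial markers summed to 23.9 to 40.5 in WT and 16.2 to 23.4 in KO, neutrophil markers to 6.3 to 10.3 and 8.8 to 12.7, lymphocyte markers to 1.7 to 3.9 and 1.5 to 2.4, and glial markers to 6.8 to 16.3 and 8 to 13.9. Of 12 muscle stem cell markers 4 were higher and 5 lower [quantile 2 and 6, total reads 2 and 6]. The part of these cells in the results was not tested.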
